A study of Mus musculus with 139 samples.

Results

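The 7 genes Ager, Hopx, Aqp5, Pdpn, Rtkn2, Clic5 and Emp2 are used as markers of type 1 alveolar epithelial cells, the thin cells that cover most of the gas-exchange surface of the lung. They were chosen by name, and their levels were read in every lung as log2 array values, in which a difference of 1 is a 2-fold change. All 7 were measured, among 22180 genes in all, each by the feature (probe set) of highest mean among those paired with that symbol alone. Ager, Hopx, Aqp5, Pdpn, Clic5 and Emp2 had 1 such feature each and Rtkn2 had 3. The lungs came from male C57BL/J6 mice, bought at 7 weeks of age, that breathed in 1 droplet placed at the base of the tongue. The droplet held 120 µg of crocidolite asbestos, a fibrous amphibole mineral, or multiwalled carbon nanotubes (MWCNT) at 1, 10, 40 or 80 µg, or only the dispersion medium (DM), a buffered glucose solution with mouse serum albumin and a lung surfactant lipid. Whole lung RNA was taken at 1, 6 or 12 months, which gives 18 groups with 45, 48 and 45 mice at 1, 6 and 12 months. There were 8 mice in a group, except 5 for crocidolite at 1 month, 6 for 1 µg at 12 months and 7 for crocidolite at 12 months. All mice were of 1 sex and strain, the mass of crocidolite was larger than any mass of MWCNT, and crocidolite was given at 1 dose.

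Type 1 cells are flat and very large. They are renewed from the cuboidal, surfactant-making type 2 cells, which pass through a transitional state that makes keratins before they flatten. The products of these genes sit at different places in the cell. Ager encodes the receptor for advanced glycation end products, RAGE, an immunoglobulin-family receptor of the basal membrane that binds S100 proteins and HMGB1. Podoplanin, from Pdpn, is a mucin-type glycoprotein of the apical membrane and a ligand of the platelet receptor CLEC-2. Aqp5 encodes the water channel of the apical membrane, and Clic5 a chloride intracellular channel protein that is bound to the actin cytoskeleton. Emp2 encodes a 4-pass membrane protein of the PMP22 family that is linked to caveolae and integrins. Rtkn2 encodes rotekin 2, and Hopx a small homeodomain protein that acts as a transcriptional cofactor without binding DNA.

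Promoter sequences of 6 of these genes were available from RefSeq (build GRCm38.p6), as 7 windows of 250 bases before and 50 after an annotated start. Of these, 3 are shown: Ager, as the gene that the others are set against, Emp2, the only one of the 7 past the test in any comparison, and the Hopx window that held a motif match. All are written 5′ to 3′ on the strand of the gene. Capitals mark a match to CAAGTG, the core motif bound by the lung transcription factor NKX2-1, or to its reverse complement CACTTG.
Ager (chr17:34597600-34597899, plus strand): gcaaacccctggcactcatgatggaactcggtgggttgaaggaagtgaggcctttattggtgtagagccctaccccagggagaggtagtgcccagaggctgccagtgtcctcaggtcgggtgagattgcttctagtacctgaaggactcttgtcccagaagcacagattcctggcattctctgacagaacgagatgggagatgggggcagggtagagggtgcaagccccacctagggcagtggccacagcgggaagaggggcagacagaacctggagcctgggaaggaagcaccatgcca
Emp2 (chr16:10313919-10314218, minus strand): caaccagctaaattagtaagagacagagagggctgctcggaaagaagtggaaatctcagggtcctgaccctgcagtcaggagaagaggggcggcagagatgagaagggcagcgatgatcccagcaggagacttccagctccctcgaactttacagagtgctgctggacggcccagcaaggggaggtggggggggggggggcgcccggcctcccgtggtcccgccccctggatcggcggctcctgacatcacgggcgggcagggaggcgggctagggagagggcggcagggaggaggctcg
Hopx (chr5:77095218-77095517, minus strand): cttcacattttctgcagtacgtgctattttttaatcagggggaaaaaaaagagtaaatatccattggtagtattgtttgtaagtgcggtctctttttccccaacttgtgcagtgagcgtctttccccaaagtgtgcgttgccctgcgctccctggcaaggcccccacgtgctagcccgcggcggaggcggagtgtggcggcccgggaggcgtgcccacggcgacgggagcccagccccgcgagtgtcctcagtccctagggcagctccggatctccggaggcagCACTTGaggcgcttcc
Of the 7 windows 1, that of Hopx, held CAAGTG on either strand, beginning 34 bases after the start, while 13.6% of 32851 RefSeq promoter windows held it. GGAATG, the core motif bound by TEAD factors, was searched on both strands too and was in 0 of the 7 windows, against 14.7% of all windows. The Ager window had 4 CpG pairs and 58.3% G and C, and the Emp2 window had 16 CpG pairs and 65.7% G and C. The median over all windows was 7 CpG pairs and 52.7% G and C. A match or its absence describes these letters only.

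The processed values of the arrays were on a like scale, which does not show that the arrays had like signal before processing. Array medians lay between 4.01 and 4.34 on the log2 scale, and the median correlation of an array with the others was between 0.9545 and 0.9861. The 10 arrays of lowest correlation came from 8 groups, among them crocidolite mice 4 and 5 at 1 month, and 38 of 139 arrays carry the word replacement in their titles, which the labels do not explain. The median difference of all genes was under 0.1 in every comparison and under each scaling tried. Markers of lung tissue were measured in every lung: Sftpc, a surfactant protein of type 2 cells, between 12.26 and 12.74, Scgb1a1 of airway club cells between 12.25 and 12.81, and Pecam1 of endothelium between 9.63 and 10.76. Some lungs also carried RNA of muscle and squamous epithelium, since Acta1 of skeletal muscle ran from 3.07 to 10.64 and Krt4 of squamous epithelium from 2.23 to 12.11.

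Almost none of the 7 genes changed past the test at any dose, fibre or time. Of 182 limma tests, 7 genes in 26 comparisons, 1 passed an adjusted p of 0.05, and 12 had an unadjusted p under 0.05. Each test used 1 spread per gene, shared by the 18 groups. Most of the 7 varied less between lungs at 1 month than later, as given further on. For these genes the 1-month intervals are wider, and the later ones narrower, than the spread of those times alone would give. In none of the 147 tests between a pair of groups did the lungs of one group lie wholly above or below those of the other. Measured with the same arrays, markers of type 2 cells, transitional epithelium, macrophages and capillary endothelium did change, as given further on. The plot of single lungs shows the values behind these tests.

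**Figure D1:**
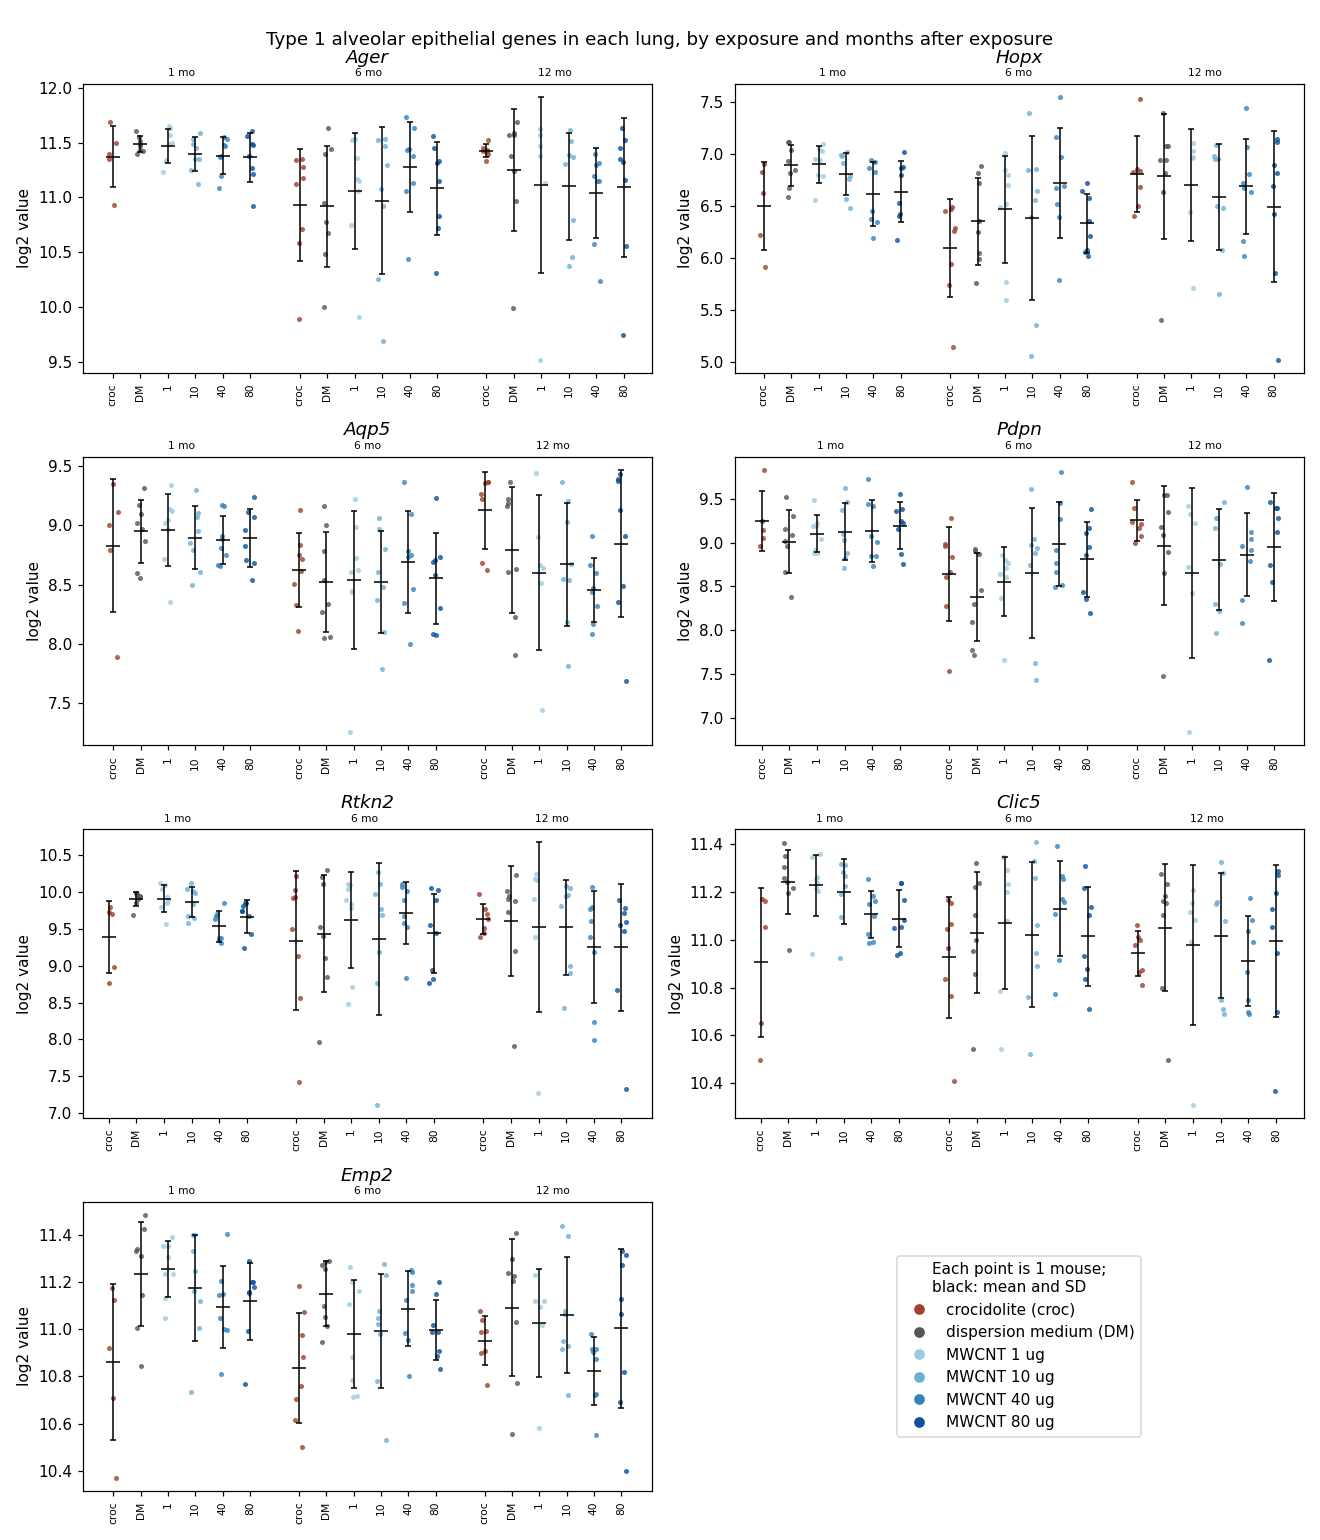
Log2 values of the 7 genes in each lung (points), with the mean and SD of each group, for crocidolite (croc), dispersion medium (DM) and MWCNT at 1, 10, 40 and 80 µg, at 1, 6 and 12 months. At 6 and 12 months single lungs of exposed and DM groups lay over 1 log2 unit below their group's mean for Ager, Pdpn or Rtkn2.

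Ager lay within a narrow range in the groups of 1 month. It averaged 11.37 ± 0.28 in crocidolite lungs (SD, n = 5), and along the MWCNT series 11.49 ± 0.07 in DM lungs and 11.47 ± 0.15, 11.39 ± 0.16, 11.38 ± 0.17 and 11.36 ± 0.22 after 1, 10, 40 and 80 µg of MWCNT (n = 8 each). At 6 months it averaged 10.93 ± 0.51 in crocidolite lungs, and 10.92 ± 0.55 in DM lungs and 11.06 ± 0.53, 10.97 ± 0.67, 11.28 ± 0.41 and 11.08 ± 0.43 after 1, 10, 40 and 80 µg of MWCNT. At 12 months the values were 11.43 ± 0.06 in crocidolite lungs, and 11.25 ± 0.56 in DM lungs and 11.11 ± 0.80, 11.10 ± 0.49, 11.04 ± 0.41 and 11.09 ± 0.64 after 1, 10, 40 and 80 µg of MWCNT. The order of the 18 means ran from 11.49 in DM lungs at 1 month down to 10.92 in DM lungs at 6 months, so both ends were control groups. The largest step between neighbours in that order was 0.14, and in 0 of 17 steps was it larger than the smaller SD of the pair. Sorting makes such steps small, so this count does not show whether groups farther apart in the order differ.

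For the other 6 genes too, in 0 of 17 steps for each did neighbouring group means differ by more than the smaller of their SDs. The same limit of sorted means holds for these counts. From the highest to the lowest of the 18 group means, Hopx spanned 0.80, Pdpn 0.87, Aqp5 0.67, Rtkn2 0.66, Emp2 0.43 and Clic5 0.33 on the log2 scale. Pdpn was highest in crocidolite lungs at 12 months, at 9.25 ± 0.23, and lowest in DM lungs at 6 months, at 8.38 ± 0.50. Aqp5 was also highest in crocidolite lungs at 12 months, at 9.12 ± 0.33, and was lowest after 40 µg at 12 months, at 8.46 ± 0.27. Hopx, Rtkn2 and Emp2 were highest after 1 µg at 1 month, at 6.90 ± 0.18, 9.91 ± 0.18 and 11.26 ± 0.12. Clic5 was highest in DM lungs at 1 month, at 11.24 ± 0.13, and lowest in crocidolite lungs at 1 month, at 10.91 ± 0.31.

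The values of most of the 7 genes lay farther apart within groups at the later times. The SD of Ager between lungs of the same group, pooled over the 6 groups of a time, was 0.18 at 1 month, 0.52 at 6 months and 0.53 at 12 months. For Rtkn2 it was 0.24, 0.76 and 0.77. The SD at 6 months was 2.96 times that at 1 month for Ager, 3.22 times for Rtkn2, 1.97 times for Hopx, 1.68 times for Pdpn, 1.63 times for Clic5 and 1.44 times for Aqp5. For Emp2 it was 0.95 times. Over all genes the median ratio was 1.01, and 4.21% of 22180 genes had a ratio over 1.4, as did 6 of these 7. At 12 months the ratio was 3.01 for Ager and 3.24 for Rtkn2, 1.66 to 2.07 for Hopx, Aqp5, Pdpn and Clic5, and 1.18 for Emp2, and 7.83% of all genes had one over 1.4. The wider spread included DM lungs: the SD of Ager was 0.55 in DM lungs at 6 months and 0.56 at 12 months, against 0.07 at 1 month. In the 7 crocidolite lungs of 12 months, 5 of them on arrays with the word replacement, the SD of Ager was 0.06, and in the 5 of 1 month it was 0.28. The difference in spread was not tested. The ratios of Ager stayed between 2.38 and 3.37 in arrays without the word replacement, without the 10 arrays of lowest correlation, and without the lung lowest in Ager of each group. Without those lowest lungs, the ratio at 12 months was 1.98 for Rtkn2, 1.75 for Aqp5 and 1.48 for Hopx. It was under 1.4 for Pdpn and Clic5 (both 1.33) and 1.03 for Emp2. At 6 months Hopx, Aqp5, Pdpn, Rtkn2 and Clic5 kept ratios of 1.45 to 2.34 without them. For Emp2 the ratio depended on the arrays used. In arrays without the word replacement it was 1.14 at 6 months and 1.66 at 12 months. Without the 10 arrays of lowest correlation it was 1.24 and 1.61.

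**Figure D2:**
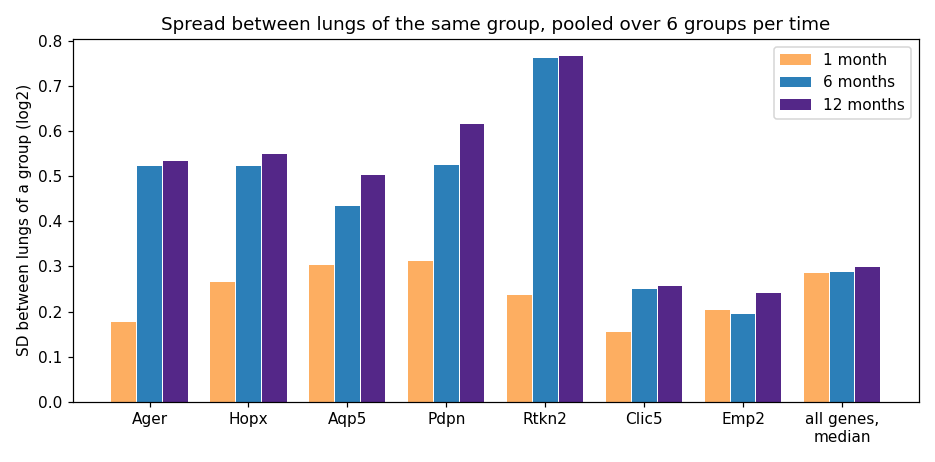
SD between lungs of the same group (log2), pooled over the 6 groups of each time, for the 7 genes and for the median of all genes. The bars of Ager and Rtkn2 at 6 and 12 months are about 3 times those at 1 month, and those of the median gene stay level. Those of Emp2 at 6 and 12 months are 0.95 and 1.18 times that at 1 month.

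Lungs low in one of the genes tended to be low in the others. After each group's mean was taken off, all 21 pairs of the 7 genes were positively related over all lungs. Pearson's r ran from 0.61 for Pdpn and Clic5 to 0.92 for Ager and Rtkn2, and Spearman's rank correlation from 0.51 to 0.86. Each pair had a permutation p of 1e-05, the smallest that 100000 two-sided permutations of lungs within groups can give, and 1e-05 also after Benjamini-Hochberg adjustment over the 21 pairs. Without the 2 lungs farthest from the median of the first gene of a pair, r was 0.90 for Ager and Rtkn2 and 0.55 for Pdpn and Clic5. In lungs on arrays without the word replacement r ran from 0.68 to 0.93, and in 33 lungs on arrays with it from 0.65 to 0.93. In 29 lungs all 7 genes were below their group's means, and in 44 lungs all 7 were above.

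The relations were also computed within each time. In the 45 lungs of 1 month r ran from 0.04 for Pdpn and Rtkn2 to 0.82 for Rtkn2 and Clic5, and 17 of 21 pairs passed after adjustment. In the 48 lungs of 6 months r ran from 0.57 to 0.93, and in the 45 lungs of 12 months from 0.69 to 0.94, with 21 of 21 pairs past the test at each. Pdpn and Clic5, the membrane glycoprotein and the chloride channel protein, had an r of 0.06 at 1 month, 0.57 at 6 months and 0.82 at 12 months. The differences in r between times were not tested, and the genes' SDs were smaller at 1 month.

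**Figure D3:**
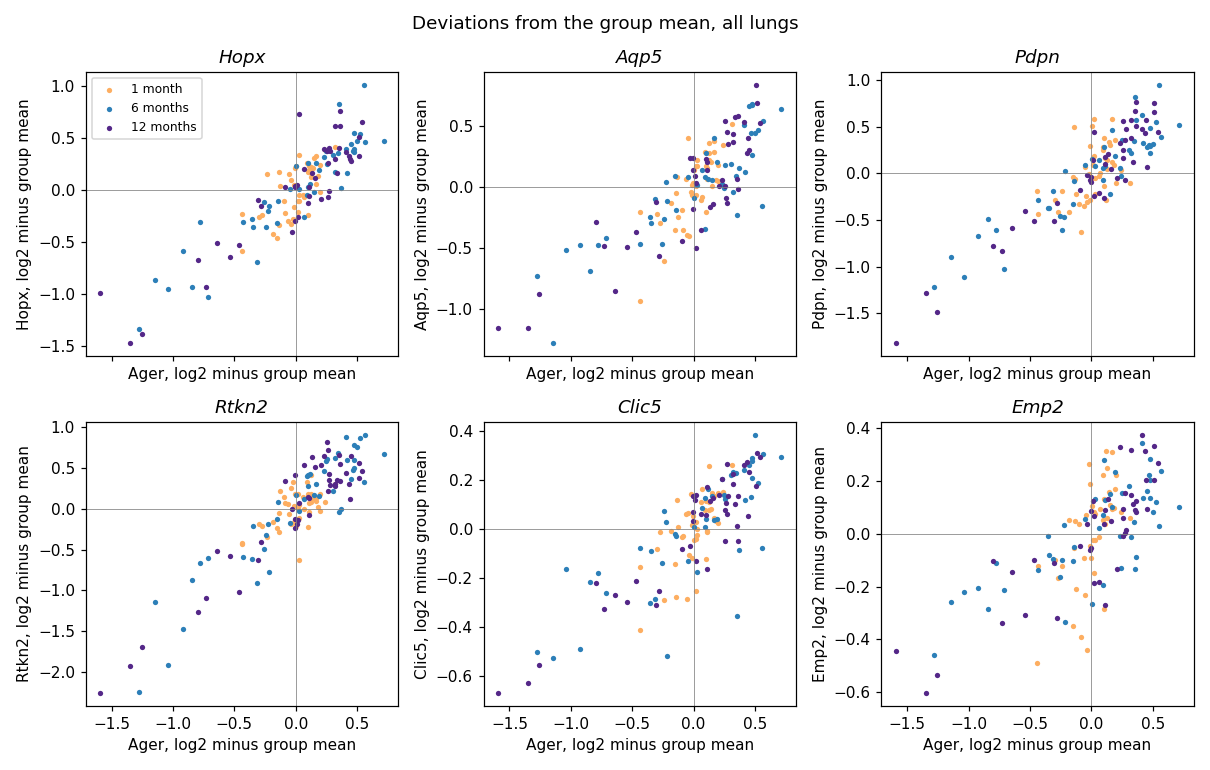
Deviation from the group mean (log2) of 6 of the genes against that of Ager, 1 point for each lung, coloured by time. The points lie along a rising line in each panel, with r from 0.72 for Emp2 to 0.92 for Rtkn2, and the lungs farthest down are of 6 and 12 months.

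In 8 lungs Ager was more than 0.8 below the mean of its group, 0 at 1 month, 5 at 6 months and 3 at 12 months. They came from exposed and DM groups, with Ager at 9.52 in mouse 4 of 1 µg at 12 months, 9.69 in mouse 2 of 10 µg at 6 months, 9.74 in mouse 5 of 80 µg at 12 months and 9.99 in mouse 4 of DM at 12 months (mice are numbered within a group in deposition order). All 7 genes were below their group means in each of the 8 lungs, Rtkn2 by 0.88 to 2.26. The mean of 26 other type 1 genes was also below the group mean, by 0.52 to 1.04. The 8 lungs were picked by Ager, to which most of these genes are related over all lungs, so this is no separate evidence. The mean of 16 type 2 genes lay between -0.25 and 0.08 of its group mean in these lungs, and that of 15 capillary endothelial genes between -0.04 and 0.23. The means of 11 transitional genes (-0.51 to -0.16), 11 ion and water transport genes (-0.39 to -0.07) and 14 regulators (-0.25 to -0.01) were below their group means in all 8 lungs. Among the 8, mouse 5 of 80 µg at 12 months and mouse 8 of 1 µg at 6 months were also high in Acta1 (10.64 and 9.59) and Krt4 (12.02 and 11.44). In the other 6, Acta1 was between 3.86 and 4.12 and Krt4 between 3.18 and 4.03, and Ager was between 9.52 and 10.44. The mean of 9 cardiac muscle genes was between -0.14 and 1.38 of its group mean over the 8 lungs, and its part in the low values was not tested. In whole lung RNA, fewer type 1 cells and less RNA per cell cannot be told apart. Between the 2 arrays of 1 mouse, Ager, Hopx, Aqp5, Pdpn and Emp2 differed by 0.12 to 0.77 in one direction. Rtkn2 and Clic5 differed by 0.21 and 0.13 in the other. The part of such differences between arrays in the low lungs and in the relations among the genes was not tested.

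Genes outside the 7 that followed them most closely were named by rule, as the 3 of highest r with each over all lungs after the group means were taken off. Ager was followed by Lama3 (r = 0.95), a laminin chain of basement membranes, Pard6b (0.94), a cell polarity protein, and Hs2st1 (0.94), a heparan sulfate sulfotransferase. Rtkn2 was followed by Lama3 (0.96), Akap5 (0.95), an anchoring protein of protein kinase A, and Cldn18 (0.93), the tight-junction claudin of alveolar epithelium. Hopx and Pdpn shared Igfbp2 (0.90 and 0.87), an insulin-like growth factor binding protein, and Hs2st1 (0.89 and 0.87). Ndnf was the third for Hopx (0.86) and Spock2 for Pdpn (0.87). Aqp5 was followed by Clic3 (0.88), Slc39a4 (0.87), a zinc transporter, and Sema3b (0.86). Clic5 was followed by Gprc5a, Scnn1g, the gamma subunit of the epithelial sodium channel (both 0.88), and Ier3 (0.87). The genes most like Emp2 were Fam189a2 and Fam174b (both 0.82) and Itga3 (0.80), the integrin alpha chain that binds laminin. Over the 18 group means, the genes most like the mean of the 7 were Sema3a (0.96), Akap5 (0.95), Scnn1g (0.94), Rasgrf2 (0.93) and Hs2st1 (0.93). These correlations share arrays and are given as a description.

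By list, 22 of 26 other type 1 genes had an r with Ager over 0.5, with a median of 0.82, against 1.71% of 22179 other genes, with a median near 0. The lowest of the list was Bmp4 (0.38) and the highest Igfbp2 (0.94). Of 11 markers of the transitional state 6 were over 0.5, led by Itgb6 (0.90), an integrin chain that activates TGF-beta. Of 16 type 2 genes 0 were over 0.5, with a median of 0.17, and of 15 capillary endothelial genes 12 were negative, with a median of -0.11. All 9 cardiac muscle genes were negative, from -0.38 for Ryr2 to -0.15 for Nppa. Of 14 regulators of type 1 cells, Tead1 had the highest r (0.76).

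Of the exposures set against DM lungs, crocidolite asbestos changed the most genes of the array at each time, and 1 of the 7 genes passed with it at 1 of 3 times. At 1 month 1 of the 7, Emp2, was lower past the test, while 5.76% of all genes passed, 2.93% higher and 2.83% lower. Emp2 was 11.12, 10.92, 11.18, 10.37 and 10.71 in the 5 crocidolite lungs, and its lowest, median and highest values were 10.84, 11.32 and 11.48 in the 8 DM lungs. Mice 4 and 5 of the crocidolite group lay below every DM lung, and the other 3 lay within the DM range. Emp2 averaged 10.86 ± 0.33 in crocidolite lungs and 11.24 ± 0.22 in DM lungs, and the log2 difference was -0.38 ± 0.12 (SE, 95% interval -0.62 to -0.13), or 0.771 times the DM level, with an adjusted p of 0.0496 over 22180 genes. It was lost without crocidolite mouse 2, 4 or 5 (adjusted p of 0.0512, 0.394 and 0.185) and without DM mouse 1, 2, 4, 5, 6 or 7 (0.0974, 0.0771, 0.0512, 0.104, 0.0831 and 0.0732). Mice 4 and 5 are among the 10 arrays of lowest correlation, without which the difference was -0.22 with an adjusted p of 0.716. In arrays without the word replacement it was -0.45 (adjusted p of 0.245), and in arrays with it -0.31 (0.671).

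Clic5 and Rtkn2 were low in the same 2 crocidolite lungs of 1 month. Clic5 was 11.05, 11.17, 11.16, 10.50 and 10.65 in the 5 crocidolite lungs, against 10.96, 11.25 and 11.40 (lowest, median, highest) in DM lungs. Mice 4 and 5 lay below every DM lung, and the other 3 within the DM range. Its difference of -0.33 ± 0.13 did not pass, with an adjusted p of 0.124. Rtkn2 was 9.73, 9.70, 9.81, 8.98 and 8.76 in crocidolite lungs, against 9.70, 9.95 and 9.99 in DM lungs, and its difference of -0.52 ± 0.36 had an adjusted p of 0.52. Hopx differed by -0.39 (95% interval -0.91 to 0.12), Aqp5 by -0.12 (-0.59 to 0.35) and Ager by -0.11 (-0.61 to 0.38). Pdpn was on the other side, at 0.24 (-0.32 to 0.79). The median difference of the 7 was -0.33, against -0.01 over all genes. The mean of 15 capillary endothelial genes ran from 8.21 to 9.23 in these crocidolite lungs and from 9.06 to 9.40 in DM lungs, and that of 11 macrophage genes from 8.26 to 9.35 in crocidolite lungs and from 6.47 to 6.82 in DM lungs. Their part in the type 1 values was not tested.

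At 6 months 0 of the 7 genes passed for crocidolite, against 3.68% of all genes (1.45% higher and 2.23% lower), and 1, Emp2, had an unadjusted p under 0.05. Emp2 had a lowest, median and highest value of 10.50, 10.82 and 11.18 in crocidolite lungs and 10.95, 11.18 and 11.29 in DM lungs. Of the 8 crocidolite lungs 5 lay below every DM lung. The difference was -0.32 ± 0.11 with an adjusted p of 0.0867, and it passed without crocidolite mouse 7 (adjusted p of 0.0463) and with array weights (0.0268). Ager, at 0.01 (95% interval -0.42 to 0.45), and Rtkn2, at -0.09 (-0.72 to 0.53), did not pass either. At 12 months 0 of 7 passed, against 6.47% of all genes (4.31% higher and 2.16% lower), and none had an unadjusted p under 0.05. Ager averaged 11.43 ± 0.06 in crocidolite lungs and 11.25 ± 0.56 in DM lungs, a difference of 0.18 (-0.27 to 0.63). Aqp5 differed by 0.34 (-0.09 to 0.76), Pdpn by 0.29 (-0.22 to 0.79) and Emp2 by -0.14 (-0.36 to 0.08). The change of the crocidolite effect from 1 to 12 months was tested as such: the 7 estimates were 0.05 to 0.55, all positive, and 0 passed, against 0.0541% of all genes, with none at an unadjusted p under 0.05.

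For MWCNT, 0 of 7 genes passed at any dose or time. The share of all genes that passed was 0%, 0% and 0% at 1, 6 and 12 months for 1 µg, 0.0225%, 0.00451% and 0% for 10 µg, 0.573%, 0.212% and 0.0361% for 40 µg, and 1.79%, 0.933% and 0.176% for 80 µg. For 80 µg these were 1.69%, 0.803% and 0.158% higher and 0.108%, 0.131% and 0.018% lower. Over these 12 comparisons 2 of the 84 member tests had an unadjusted p under 0.05. One was Pdpn after 40 µg at 6 months, with 8.49, 8.84 and 9.80 (lowest, median, highest) against 7.71, 8.38 and 8.93 in DM lungs, a difference of 0.61 ± 0.25 with an adjusted p of 0.447. The other was Emp2 after 40 µg at 12 months, with 10.55, 10.89 and 10.98 against 10.56, 11.21 and 11.41 in DM lungs, a difference of -0.27 ± 0.11 with an adjusted p of 0.289. The groups overlapped in both. Rtkn2 after 40 µg at 1 month averaged 9.54 ± 0.21 against 9.91 ± 0.10 in DM lungs, with 6 of 8 lungs below every DM lung. Its SE of 0.32 came from the spread shared with the later times, and its adjusted p was 0.976. After 80 µg the differences of the 7 ranged from -0.25 to 0.18 at 1 month. The range was -0.16 to 0.43 at 6 months, with Pdpn highest, and -0.35 to 0.06 at 12 months, with Rtkn2 lowest. The change of the 80 µg effect from 1 to 12 months passed for 0 of 7 genes, with none at an unadjusted p under 0.05, against 0.00902% of all genes. For Ager the 95% intervals after 80 µg were -0.56 to 0.31, -0.27 to 0.60 and -0.59 to 0.28 at 1, 6 and 12 months.

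**Figure D4:**
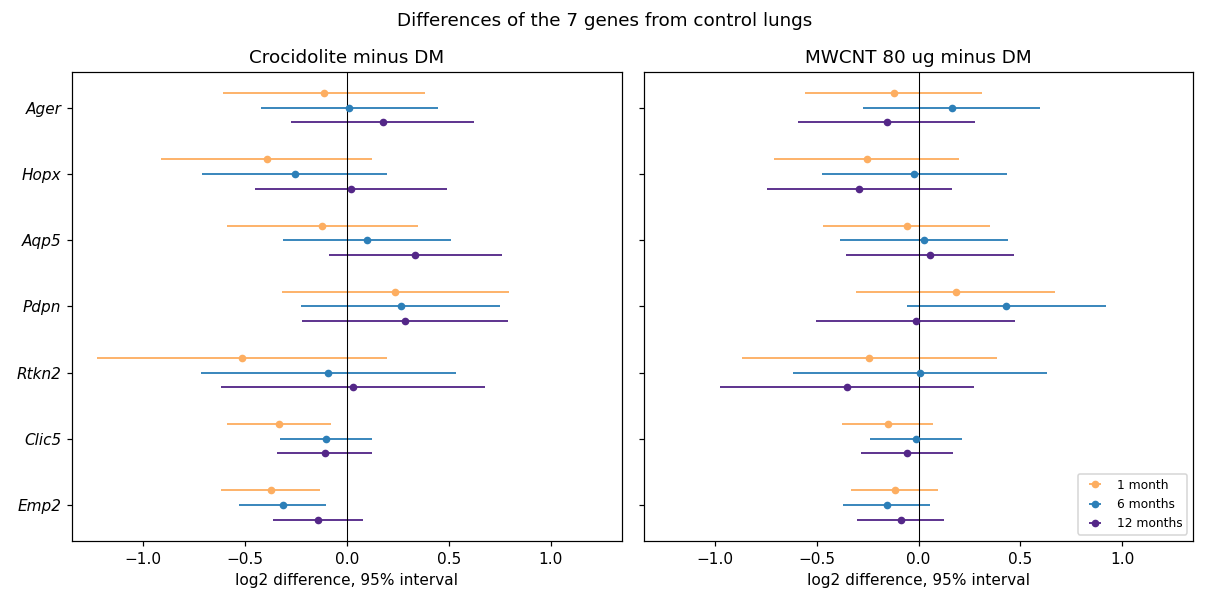
Log2 difference from DM lungs of the same time, with its 95% interval, for the 7 genes after crocidolite (left) and after 80 µg of MWCNT (right), at 1, 6 and 12 months. The intervals of Emp2 after crocidolite at 1 and 6 months and of Clic5 at 1 month lie below 0, and all others cross it.

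The slope over dose gave the same count, 0 of 7 at each time, against 3.03%, 1.34% and 1.2% of all genes at 1, 6 and 12 months. It is in log2 units for each unit of log2(dose in µg + 1), over DM and the 4 doses. At 1 month the slopes of 6 genes were negative, from -0.05 for Rtkn2 to -0.01 for Aqp5, none with an unadjusted p under 0.05. Rtkn2 averaged 9.91 ± 0.10 in DM lungs and 9.91 ± 0.18, 9.87 ± 0.21, 9.54 ± 0.21 and 9.67 ± 0.22 after 1, 10, 40 and 80 µg of MWCNT. Its slope of -0.05 ± 0.04 had an adjusted p of 0.72 where the 18 groups shared 1 estimate of the spread, and of 0.00801 where only the 1-month DM and MWCNT lungs entered the fit. Rtkn2 was the gene whose spread differed most between times. At 6 months Pdpn had the steepest slope, 0.08 ± 0.03 (unadjusted p under 0.05, adjusted p of 0.313). Between the fibres, crocidolite against 80 µg of MWCNT, 0 of 7 passed at 1, 6 and 12 months, against 0.0902%, 0.0271% and 0.978% of all genes. Emp2 at 1 month was the only one of these with an unadjusted p under 0.05, with a mean of 10.86 ± 0.33 after crocidolite and 11.12 ± 0.16 after 80 µg. The masses differ, 120 µg and 80 µg.

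In control lungs alone, all 7 genes had lower means at 6 than at 1 month, and 0 passed the test, against 0.135% of all genes. Age and time since the droplet rose together in these groups and cannot be told apart. Arrays with the word replacement were not evenly spread over them. Ager had a lowest, median and highest value of 10.00, 10.86 and 11.63 at 6 months and 11.40, 11.48 and 11.61 at 1 month. Of the 8 lungs of 6 months, 6 were below every lung of 1 month and 1 was above them all. The difference was -0.57 ± 0.22, with an adjusted p of 0.37. Pdpn differed by -0.63 ± 0.25 (0.374), Hopx by -0.54 ± 0.23 (0.431) and Aqp5 by -0.42 ± 0.21 (0.523, adjusted p in brackets). These 4 had unadjusted p-values under 0.05, as did 9.31% of all genes. At 12 against 1 month 0 of 7 passed, against 1.12% of all genes, and none had an unadjusted p under 0.05. At 12 against 6 months 0 of 7 passed, against 0.239%, and Pdpn alone had an unadjusted p under 0.05, at 0.59 ± 0.25.

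Of 26 other genes of type 1 cells, 4 fell with crocidolite at 1 month, 1 at 6 months and 1 at 12 months. None rose, and the shares of all genes that fell were 2.83%, 2.23% and 2.16%. The 4 were Cyp4b1, a fatty acid hydroxylase (-0.86 ± 0.14 SE, adjusted p of 1.25e-06), Vegfa, the vascular growth factor (-0.46 ± 0.14), Cav1, the coat protein of caveolae (-0.42 ± 0.08), and Timp3, an inhibitor of matrix proteases (-0.41 ± 0.13). Cyp4b1 averaged 9.31 ± 0.78 (SD) in crocidolite lungs and 10.17 ± 0.19 in DM lungs at 1 month. The SDs in crocidolite and DM lungs were 0.43 and 0.14 for Vegfa, 0.35 and 0.10 for Cav1, and 0.40 and 0.20 for Timp3. Of the 5 crocidolite lungs 4 lay below every DM lung for Cyp4b1, Vegfa and Cav1, and 2 for Timp3. Whether these calls hold without crocidolite mice 4 and 5, among the 10 arrays of lowest correlation, was not tested. Cyp4b1 was again the gene that fell at 6 months, by 0.54 on the log2 scale, with all 8 crocidolite lungs below every DM lung. Cav1 fell at 12 months, by 0.26. After 80 µg of MWCNT 0 of 26 passed at each time, against 1.79%, 0.933% and 0.176% of all genes at 1, 6 and 12 months. In the limma slope over MWCNT dose, Cav1 passed as lower at 1 month (-0.03, adjusted p of 0.045). Msln, also a mesothelial gene, passed as higher at 6 months (0.15, adjusted p of 0.00576). Of all genes 3.03% and 1.34% passed in the slope at these times. Cyp4b1, Cav1 and Timp3 are also made by endothelium and other cells. The median difference of the 26 for crocidolite was -0.26, -0.06 and 0.13 at 1, 6 and 12 months.

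Partners and relatives of the 7 proteins moved in both directions. Of 14 RAGE ligands and partners, 3 rose with crocidolite at 1 month, 0 at 6 months and 5 at 12 months, against 2.93%, 1.45% and 4.31% of all genes. S100a11, a calcium-binding RAGE ligand, rose by 0.62 ± 0.11 at 12 months (10.89 in crocidolite lungs and 10.26 in DM lungs) with 6 of 7 crocidolite lungs above every DM lung. S100b also passed, but its means of 3.33 in crocidolite lungs and 2.57 in DM lungs lay below the median level of all features, 4.17, where the size of a difference is uncertain. After 80 µg of MWCNT 1 of the 14 rose, Tlr2, a receptor that shares ligands with RAGE, by 0.42 ± 0.12 at 1 month. The shares of all genes that rose with 80 µg at 1 and 6 months were 1.69% and 0.803%. Cd44, the hyaluronan receptor that binds podoplanin, was the 1 of 6 podoplanin partners that rose, by 0.67 ± 0.12, 0.43 ± 0.10 and 0.60 ± 0.11 with crocidolite at 1, 6 and 12 months, and with 80 µg of MWCNT by 0.57 ± 0.10 at 1 month and 0.45 ± 0.10 at 6 months. Each of the 7 crocidolite lungs of 12 months was above every DM lung for Cd44. Among the aquaporins, Aqp4, a water channel of airway cells, rose with crocidolite by 0.57 ± 0.17, 0.70 ± 0.15 and 1.66 ± 0.16 at 1, 6 and 12 months. Its means at 12 months were 7.24 in crocidolite lungs and 5.58 in DM lungs, with all 7 crocidolite lungs above every DM lung. Aqp5 itself differed by -0.12, 0.10 and 0.34 at those times, with no test passed. Aqp1, the water channel of endothelium, fell by 0.40 at 1 month and 0.43 at 6 months. Aqp3, a channel for water and glycerol, passed as higher at 1 and 12 months, with means of 4.96 and 5.23 in crocidolite lungs, against 4.06 and 4.15 in DM lungs, the DM means below the median level of all features. Pmp22, the gene that names the family of Emp2, fell by 0.53 ± 0.15 at 1 month. Clic6, of the family of Clic5, rose by 0.59 ± 0.12 with crocidolite at 12 months and by 0.42 ± 0.12 with 80 µg of MWCNT at 1 month. Of 8 caveolar genes 3 fell at 1 month, Cavin2 (-0.57 ± 0.10), Cav1 and Cav2, and 2 at 12 months, Cavin2 and Cav1. The shares of all genes that fell with crocidolite at these times were 2.83% and 2.16%. At 1 month the SDs in crocidolite and DM lungs were 0.52 and 0.07 for Cavin2 and 0.62 and 0.14 for Pmp22. The 1-month calls of this paragraph were not tested without crocidolite mice 4 and 5.

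Of 14 regulators of type 1 cells, 0 passed with crocidolite at 1 month, and Grhl2 rose at 6 months (0.39 ± 0.11) and 12 months (0.35 ± 0.11). Sox9 also passed at 12 months, with means of 4.24 in crocidolite lungs and 3.72 in DM lungs, the DM mean below the median level of all features. Etv5, an ETS factor known for type 2 cells, was the 1 that rose after 80 µg of MWCNT, by 0.36 ± 0.10 at 1 month. Of the 16 type 2 genes 8, 6 and 11 rose with crocidolite at 1, 6 and 12 months and 7, 4 and 1 with 80 µg, and none fell. At 1 month Chil1 had the largest difference with crocidolite, at 1.01 ± 0.13. Sftpd, surfactant protein D, averaged 10.90 in crocidolite lungs and 9.95 in DM lungs at 1 month. Of the 11 transitional genes 3, 3 and 6 rose with crocidolite and 2, 2 and 1 with 80 µg. Tnip3 rose by 1.37 ± 0.18, 0.70 ± 0.16 and 1.12 ± 0.16 with crocidolite at 1, 6 and 12 months. Lgals3, the lectin galectin 3, rose by 1.09 ± 0.16, 1.12 ± 0.14 and 1.19 ± 0.15 with crocidolite. Krt8, Krt18 and Krt19, keratins on the transitional list, were among the 6 at 12 months and were named after their values were seen. Club and mucous cell genes also rose in those lungs, Clca1 by 4.70 ± 0.66 and Agr2 by 2.32 ± 0.29. The cells that made the keratins were not tested. Lgals3 is also made by macrophages, of whose 11 genes 9, 6 and 9 rose with crocidolite. Of the 15 capillary endothelial genes 11, 14 and 11 fell with crocidolite and 0 with 80 µg. Of 9 cardiac muscle genes 8 fell with crocidolite at 12 months. Over all genes, 2.93%, 1.45% and 4.31% rose and 2.83%, 2.23% and 2.16% fell with crocidolite at 1, 6 and 12 months. With 80 µg, 1.69%, 0.803% and 0.158% rose and 0.108%, 0.131% and 0.018% fell. The 0 of 15 with 80 µg is near that share. The lists were chosen with results of these arrays known, so their counts are no independent evidence, and no test set one list against another.

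**Figure D5:**
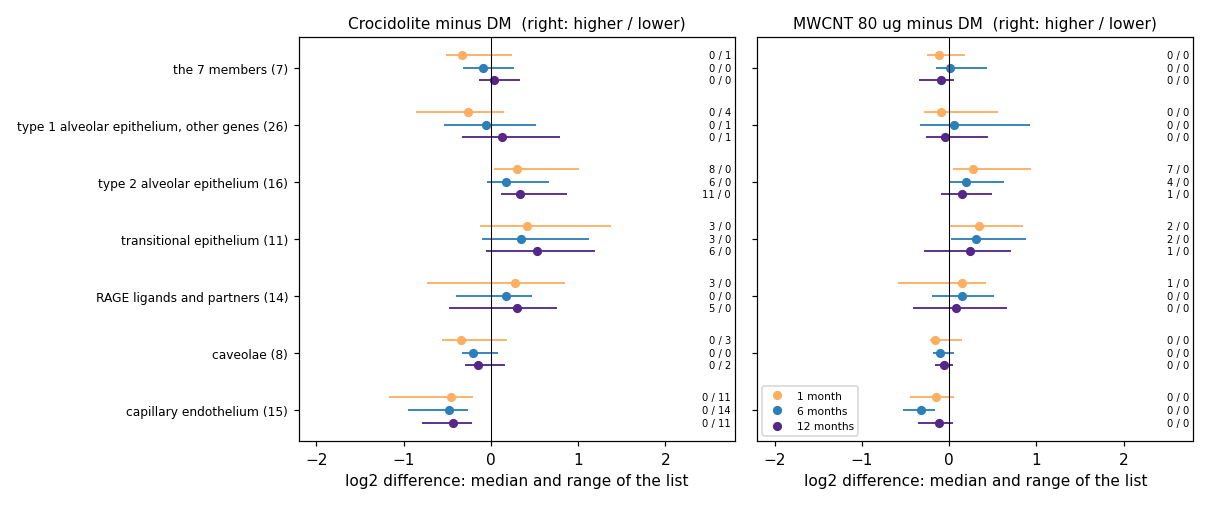
Median (point) and range (line) of the log2 differences from DM lungs over the genes of each list, after crocidolite (left) and 80 µg of MWCNT (right), at 1, 6 and 12 months, with the number of genes higher and lower past the test at the right edge. The 7 type 1 genes had 0 higher and 1 lower with crocidolite at 1 month, and 11 of 16 type 2 genes were higher at 12 months.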

How the data were processed

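Total RNA from whole lung was labelled and hybridised to Affymetrix arrays, 139 arrays, 1 for each mouse except 1 mouse with 2. The deposited log2 values are the authors' processed expression values. The submitters' processing notes name oligo, RMA and limma without versions or roles, and they name no genome build. Scale was checked on the values, which ran from -0.05 to 13.28.

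Of 41345 features, 23521 carried 1 gene symbol in the platform annotation, 1814 several and 16010 none. The feature of highest mean was kept per symbol, which gave 22180 genes. The 2 arrays of that mouse (mouse 1 of the 1 µg group at 1 month) were averaged. One linear model with a mean for each of the 18 groups was fitted with limma 3.58.1 (R 4.3.3), with empirical Bayes moderation (120 residual degrees of freedom), two-sided tests and Benjamini-Hochberg adjustment over all genes, at a threshold of 0.05. The fit was tested on simulated data. Named genes are the 7, genes from among the 2 of largest difference past the test in each list, and those of highest correlation. Not all of those 2 are named for every list. Other genes past the test in short lists were named after their values were seen. The genes and lists were chosen with earlier results of these data known. Labels name separate mice, so p-values measure the spread between mice, taken as equal in all 18 groups. For Ager the pooled SD was 0.18, 0.52 and 0.53 at 1, 6 and 12 months, so the shared estimate matches no single time. The closing section gives the alternatives. Reference names and promoters came from RefSeq tables (GRCm38.p6).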

Additional observations from a re-analysis of the deposited data

Results flagged for a closer look

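Single lungs stood far from the rest of their group in 14 of 126 combinations of a gene and a group, each by the gap to its nearest neighbour relative to the group's range. Chance alone flags about 1 in 20 groups, and the genes of a lung are related, so the 14 are not independent. Mouse 4 of DM at 12 months was the lowest of its group for all 7 genes and stood apart for 4, with Ager at 9.99, Hopx at 5.40, Pdpn at 7.48 and Rtkn2 at 7.91. Mouse 4 of 1 µg at 12 months was likewise lowest for all 7 and stood apart for 4, with Ager at 9.52, Rtkn2 at 7.27, Clic5 at 10.31 and Emp2 at 10.58. Mouse 8 of 1 µg at 6 months stood apart for Aqp5, at 7.26, and for Pdpn, at 7.66. After 40 µg at 6 months the lowest lung had Rtkn2 at 8.84. At 1 month the lowest lung had Clic5 at 10.94 after 1 µg and at 10.96 in the DM group. In the crocidolite group of 12 months the highest lung had Hopx at 7.53, and the next had 6.86. No explanation was tested.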

How the results depend on the processing

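No paired analysis was possible because mouse numbers within groups were given in deposition order and pair no samples. Of 7 genes, the count past the test for crocidolite at 1 month was 1 and became 0 with arrays centred on their medians, array weights, the groups compared alone, the word replacement as a covariate, arrays without or with that word alone, without the 10 arrays of lowest correlation and with the mean of features per gene, and it was 0 to 1 when 1 mouse was left out. For crocidolite at 6 months it was 0, 1 with array weights, and 0 to 1 with 1 mouse left out. For the MWCNT dose trend at 1 month it was 0, and 1 (Rtkn2) with the groups compared alone. With fewer groups or arrays the fit has fewer samples, and for the other alternatives the cause was not tested. For Emp2 at 1 month the call held with quantile normalization, trend and robust moderation, dim genes left out and either array of the mouse with 2. Over single genes and pairs, 4949 values were recomputed. Of these, 17 lost a call, 3 gained one and 1 moved (the Rtkn2 ratio of spread given above). The other 4928 were counted as unchanged. A difference that did not pass the test was counted so even where its sign changed. The sign changed for Ager with crocidolite at 6 months in 9 of 16 fits with 1 mouse left out (-0.12 to 0.16). It also changed for Pdpn after 80 µg at 12 months in 8 of 16 (-0.22 to 0.17). Many other differences kept their sign in all such fits. The ratios of spread under other arrays were added after seeing the data. The lowest r of the 21 pairs was 0.61 over all lungs, and 0.65 to 0.68 in arrays without or with the word replacement, with arrays centred and without the 10 arrays of lowest correlation. It was 0.04, 0.57 and 0.69 within 1, 6 and 12 months. The number of arrays limits the precision.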

Other observations

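Mouse 1 of the 1 µg group at 1 month was hybridised on 2 arrays, 1 of them with the word replacement in its title. The array with that word and the other read 11.32 and 11.65 for Ager, 8.81 and 9.58 for Pdpn, 8.65 and 9.28 for Aqp5, 6.62 and 6.97 for Hopx, 10.20 and 9.99 for Rtkn2, 11.32 and 11.19 for Clic5, and 11.18 and 11.29 for Emp2. The gaps of 0.77 for Pdpn, 0.63 for Aqp5, 0.35 for Hopx and 0.32 for Ager between arrays of 1 mouse were larger than the pooled SDs between lungs of a group at 1 month, 0.31, 0.30, 0.27 and 0.18. Those of 0.21 for Rtkn2, 0.13 for Clic5 and 0.12 for Emp2 were smaller than their SDs of 0.24, 0.15 and 0.20.

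Of the 3 features of Rtkn2, the 2 brighter ones gave like values. The kept feature (median 9.76) and the second (median 8.47) had an r of 0.83 over lungs after group means were taken off, and differed between crocidolite and DM lungs at 1 month by -0.52 and -0.45. The third (median 3.23, between 2.27 and 4.09 in every lung) differed by 0.12 and had an r of 0.67 with the kept feature.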
